A study of Homo sapiens with 14 samples.

Results

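The end state of retinoic acid (RA) induction in NT2 cells was described by setting cells after 21 days of RA against untreated cells at day 0, across all genes measured by RNA sequencing. The members were the 2 libraries that the labels give as RA for 21 days and the 2 that they give as no treatment at day 0, 4 of the 14 libraries of the series. NT2 is a human embryonal carcinoma line, a malignant counterpart of early embryonic stem cells, and all libraries came from this 1 line. The series follows it through 5, 10 and 21 days of RA or of bone morphogenetic protein 2 (BMP2), with 2 libraries for each of 7 groups.

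RA day 21 cells had all-trans RA, dissolved in DMSO, at a final 10 µM, which the labels give as the treatment for making neurons. RA day 10 cells had the same treatment for 10 days, and BMP2 day 21 cells had BMP2 for 21 days, given as the treatment for making muscle cells. The labels name 30 ng/ml of BMP2 as the dose used first and 40 ng/ml as the dose used later, without the dose of each library. All cultures were in DMEM with fetal bovine serum, and the medium was changed every 2 days. DMSO at 0.1% is named as a negative control, but the day 0 libraries are labelled as untreated. RA, its vehicle and 21 days in culture therefore cannot be told apart in the comparison with day 0, and no untreated culture of a later day was analysed here. Nothing in the labels says whether the 2 libraries of a group came from separate cultures, so the p-values measure the spread between libraries, which may be technical.

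RA is made from retinol by retinaldehyde dehydrogenases and is broken down by the CYP26 enzymes. In the nucleus it binds the RA receptors (RARs), which sit with retinoid X receptors on DNA at paired repeats and switch on targets that include the CYP26 genes, RARB and the 3' genes of the HOX clusters. In the embryo this signal patterns the hindbrain and spinal cord, and embryonal carcinoma cells such as NT2 have long been used to follow it as they leave the pluripotent state toward neurons and other cells.

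Some short sequences at genes that recur below hold letters of known regulatory elements. They are reference sequence, the same for both states, and show nothing of either state. All are from RefSeq on GRCh38.p14, 5' to 3' on the gene's own strand, and each promoter is the 150 bases before the RefSeq start. Capitals mark the letters searched for, on both strands: GTTCA, any 6 bases and GTTCA again, the core of a direct repeat that RAR dimers are known to bind, in RARB (chr3:25428113-25428262, plus strand) and CYP26A1 (chr10:93073743-93073892, plus strand); and TTTGCAT, any base and ACAATG, a joined site for the pluripotency factors OCT4 and SOX2, in NANOG (chr12:7789252-7789401, plus strand).
RARB: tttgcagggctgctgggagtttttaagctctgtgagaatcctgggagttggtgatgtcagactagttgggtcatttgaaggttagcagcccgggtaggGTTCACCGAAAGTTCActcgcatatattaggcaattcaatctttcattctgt
CYP26A1: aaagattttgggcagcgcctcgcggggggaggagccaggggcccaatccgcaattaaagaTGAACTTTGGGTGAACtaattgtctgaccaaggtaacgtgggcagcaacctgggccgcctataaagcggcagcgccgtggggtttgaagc
NANOG: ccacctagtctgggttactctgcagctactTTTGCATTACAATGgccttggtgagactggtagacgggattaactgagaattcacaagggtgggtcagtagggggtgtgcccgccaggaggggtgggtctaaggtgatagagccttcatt
The repeat core lay 52 to 37 bases before the start in RARB and 90 to 75 bases before it in CYP26A1, where it read on the other strand. It was found in 19 of 27305 RefSeq genes (0.0696%) in windows of 250 bases before to 50 bases after a start. Of the list members tested with a window, 1 of 14 retinoid breakdown, binding and synthesis genes and 1 of 11 receptors and classical targets held it. The OCT4 and SOX2 letters lay 120 to 107 bases before the start of NANOG and were found in 3 of those genes (0.011%), with 1 of 14 pluripotency factors among them. RARB and CYP26A1 stood higher at RA day 21 and NANOG lower, as given below. Whether these letters bear on those levels was not tested. A match of letters is a description and not a measured binding site.

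The libraries held 61590693 and 69531635 counts at RA day 21, and 50475226 and 75754396 in untreated day 0 cells, within a range of 45773278 to 75754396 over all 14. Values are counts per 1000000 counts (CPM), scaled by trimmed mean of M values (TMM) library factors. RA day 21 libraries held a count for 21115 and 20967 genes, and untreated libraries for 19725 and 19863. The 2 RA day 21 libraries correlated at r = 0.987 over log2 CPM of the tested genes and the 2 untreated libraries at 0.9755. The BMP2 day 10 libraries stood apart, with r = 0.9093 between them, and they enter the shared estimate of spread behind each test. Among counts of 1 to 19, between 66.0% and 73.5% were even in each library, so counts are not independent molecules. Bounds and counting intervals below treat counts as independent and are therefore too tight.

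A large share of the transcriptome differed between the 2 states. Of 19142 genes tested with edgeR's quasi-likelihood test, 8529 had a Benjamini-Hochberg adjusted p under 0.05, 44.6% of those tested. RA day 21 was higher for 4487 genes (23.4%) and lower for 4042 (21.1%). For the lists below with 0 genes called in a direction, edgeR at an unadjusted p under 0.05 and DESeq2 gave at most 1 gene in that direction. These 3 percentages are the background for each gene list below, where "rose" and "fell" are used of genes past that threshold. A change of over 2-fold was seen in 3542 of the higher and 2709 of the lower genes, and one of over 32-fold in 584 of the higher and 289 of the lower. The median log2 fold change over all tested genes was 0.10. The libraries of the 2 states did not overlap for 15797 genes, 82.5% of those tested. Every gene named below as having risen or fallen is among them, with both RA day 21 libraries on the same side of both untreated ones. The number of calls fell to 5470 without RA day 21 replicate 1, 5271 without replicate 2, and 5426 without untreated replicate 2.

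**Figure D1:**
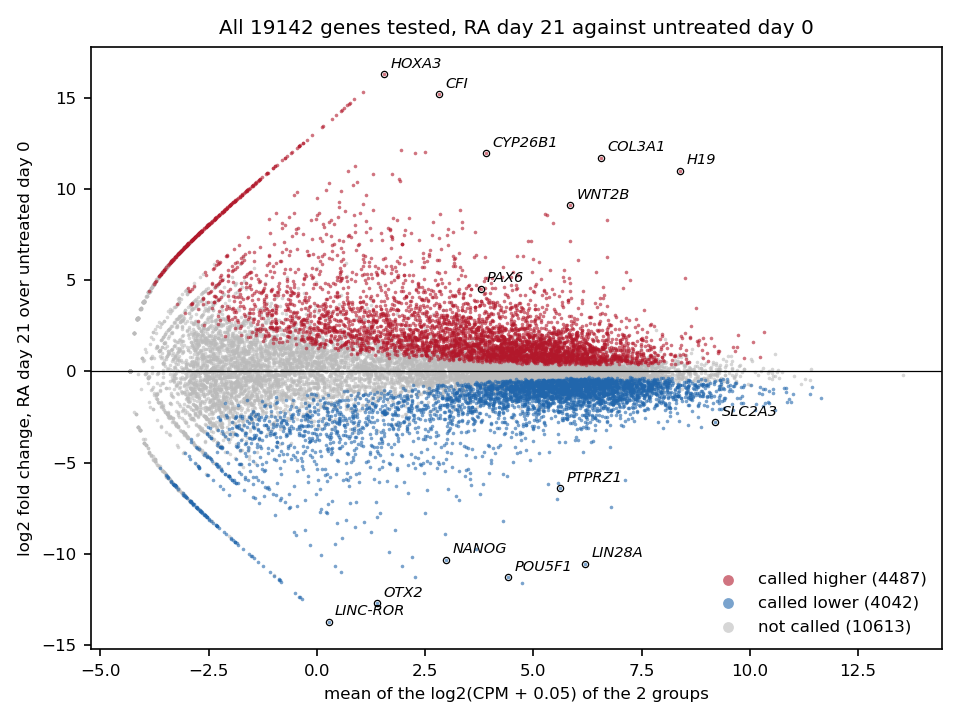
Log2 fold change of RA day 21 over untreated day 0 (vertical axis) against the mean of the 2 groups' log2(CPM + 0.05) (horizontal axis) for the 19142 tested genes, with the 4487 higher and 4042 lower genes in colour and 14 genes labelled. Rises and falls are of similar number, with HOXA3 and CFI near the top and LINC-ROR and OTX2 near the bottom.

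CYP26B1, H19 and PAX6, taken here as markers of this end state, were all far higher in RA day 21 than in untreated cells. Their means at RA day 5 were already 108, 4103 and 47.3 CPM. A rise of genes taken as markers describes the comparison and is no test of the end state. CYP26B1, an enzyme that breaks down RA, had 934 and 796 CPM in RA day 21 libraries, against 0.203 and 0.223 in untreated libraries. The difference was a log2 fold change of 11.97 ± 1.19 (SE here and below), with an edgeR adjusted p of 0.00011. H19, an imprinted long noncoding RNA of embryonic tissues, had 15661 and 14495 CPM in RA day 21 libraries, against 6.65 and 8.06 in untreated libraries. Both RA day 21 libraries stood far above both untreated ones, and its log2 fold change was 11 ± 0.93 (edgeR adjusted p = 7.07e-05). PAX6, a transcription factor of the neural tube and eye, had 68.7 and 62.4 CPM in RA day 21 libraries, against 2.49 and 3.16 in untreated libraries. Its log2 fold change was 4.53 ± 0.67 (edgeR adjusted p = 0.000585), and as for the other two the groups did not overlap.

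Markers of other cell types were summed to check what the labelled neuronal induction had left in the culture. The 4 pluripotency markers POU5F1, NANOG, LIN28A and TDGF1 summed to 3.18 and 2.6 CPM in RA day 21 libraries, against 4104 and 4706 in untreated libraries. The 7 neuronal markers measured of 8 summed to 179 and 211 CPM in RA day 21 libraries, against 74.1 and 52.4 in untreated libraries, and most of the counts in that sum were of MAP2. Neural progenitor markers summed to 221 and 225 CPM in RA day 21 libraries, against 702 and 739 in untreated libraries, and HES5 was at 0 in the RA day 21 libraries. Nearly all of the untreated sum was of NES and SOX2, with means of 406 and 310 CPM. SOX2 is also a pluripotency factor, NES was not called, and PAX6, in the same sum, rose. The largest marker sum apart from that of CYP26B1, H19 and PAX6 was that of the 8 fibroblast and mesenchyme markers. It came to 5851 and 5890 CPM in RA day 21 libraries, against 49.8 and 46.8 in untreated libraries. Nearly all of those counts were of COL3A1, a fibrillar collagen chain. These sums go against reading the RA day 21 cultures as neurons alone, so they are called RA day 21 cells throughout. Astrocyte markers reached 8.94 and 9.84 CPM in RA day 21 libraries, against 0.771 and 0.612 in untreated libraries, almost all from AQP4, a water channel whose call was lost without untreated replicate 2. AQP4 lies wholly inside other annotated genes, so its count may hold reads of those genes. Endoderm markers stayed under 1 CPM in all 4 libraries, with SOX17, ALB and TTR at 0 in the RA day 21 libraries. In RNA of whole cultures, fewer cells of a type and less RNA per cell cannot be told apart.

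**Figure D2:**
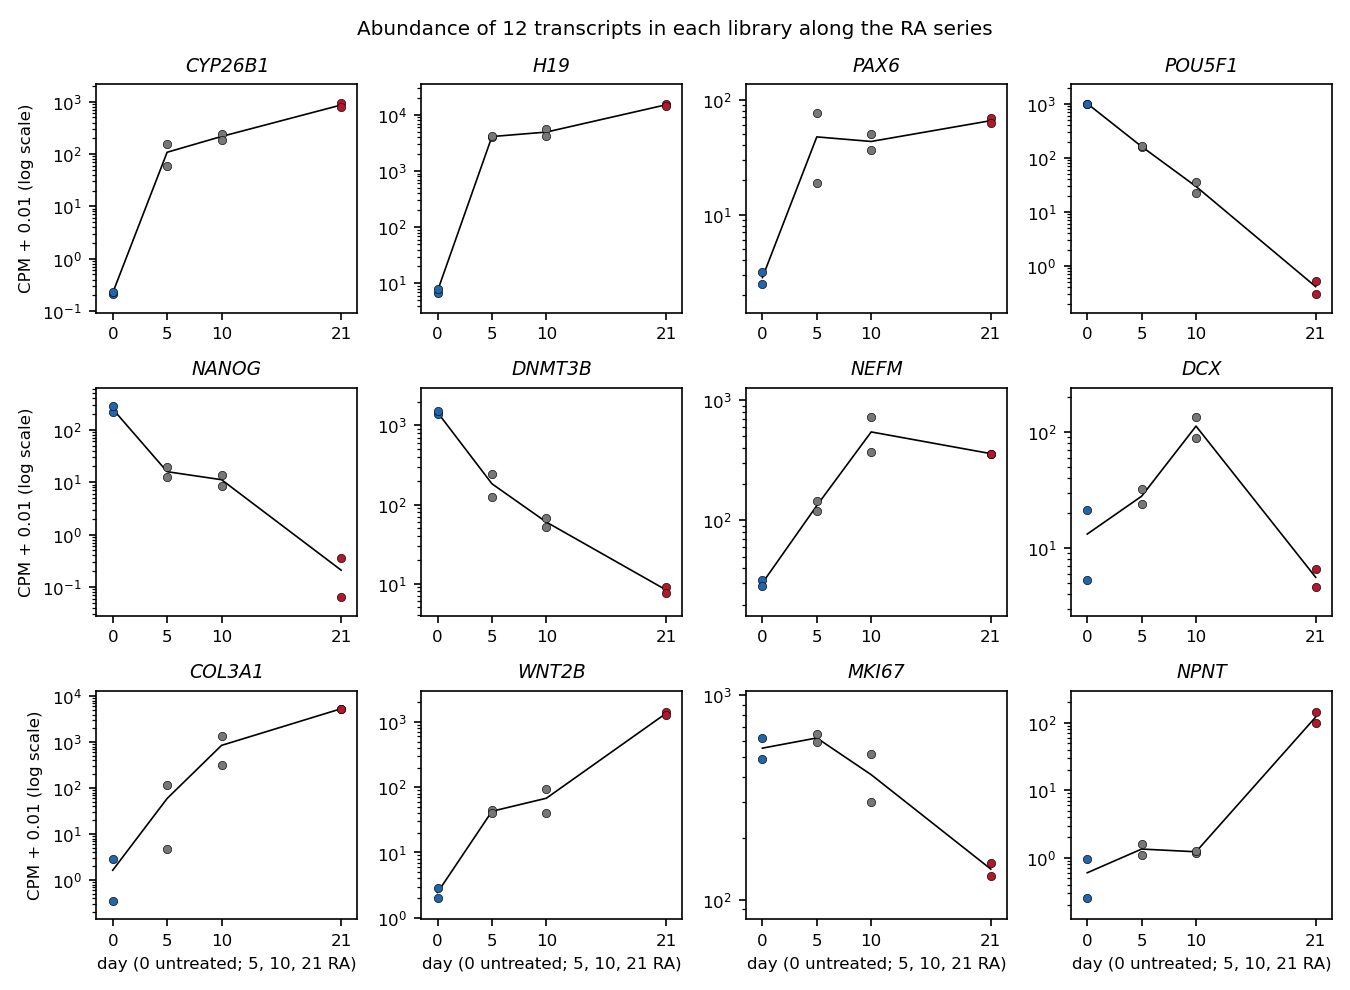
CPM (vertical log axis, 0.01 added) of 12 genes in untreated cells at day 0 and in RA libraries at days 5, 10 and 21 (horizontal axis), with a point per library and a line through group means. CYP26B1, H19, COL3A1 and WNT2B end at 796 CPM or more in both day 21 libraries, POU5F1 and NANOG end below 1 CPM, and DCX is highest at day 10.

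Most genes of the pluripotency network fell to low levels. Of 22 pluripotency factors, all of them tested, 19 fell and 0 rose (median log2 fold change -5.96), a count that stayed within 1.5 times without any 1 library. POU5F1, which encodes OCT4, had 0.508 and 0.296 CPM in RA day 21 libraries, against 1011 and 1006 in untreated libraries, a log2 fold change of -11.29 ± 1.77 (edgeR adjusted p = 0.000832). NANOG, a core factor of the same network, had 0.344 and 0.0539 CPM in RA day 21 libraries, against 220 and 279 in untreated libraries, a 1255-fold lower mean. The libraries of the 2 states did not overlap for either gene. NANOGP8, a processed copy of NANOG, had 2 counts over both RA day 21 libraries, and since the copies share sequence their reads may be split between them. LIN28A, an RNA-binding protein that blocks let-7 maturation, had 1.91 and 1.85 CPM in RA day 21 libraries, against 2536 and 3050 in untreated libraries. DNMT3B, the DNA methyltransferase typical of pluripotent cells, had 9.02 and 7.65 CPM in RA day 21 libraries, against 1386 and 1533 in untreated libraries, 175-fold lower on average.

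SOX2 fell less far than its partners. It had 19.4 and 22.2 CPM in RA day 21 libraries, against 314 and 304 in untreated libraries, a log2 fold change of -3.90 ± 0.68 (edgeR adjusted p = 0.00145), and it lies wholly inside another annotated gene, so its count may hold reads of that gene. OTX2, a head and forebrain factor that primed pluripotent cells also express, had 2 counts over both RA day 21 libraries and 12991 over both untreated libraries. The scaled ratio was 7567-fold lower at RA day 21, with a 95% counting interval of 2094 to 62491. PRDM14, a repressor that guards the pluripotent state, had 0.149 and 0 CPM in RA day 21 libraries, against 138 and 228 in untreated libraries. FOXD3 was 141-fold lower and TERT, the catalytic subunit of telomerase, was 30.4-fold lower on average at RA day 21. TDGF1, SALL4, L1TD1, GDF3 and DPPA4, chosen after their values were seen, fell by between 7.58-fold for DPPA4 and 862-fold for TDGF1. LEFTY2 and NODAL, a Nodal inhibitor and the signal itself, also chosen after their values were seen, were not called.

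Noncoding RNAs of the pluripotent state went the same way. LINC-ROR, a long noncoding RNA that pluripotent cells express, had 0 counts in both RA day 21 libraries, against 31.6 and 26.5 CPM in untreated libraries, at least 1366-fold lower when the empty group is set at 3 counts over both libraries. ESRG, a transcript named for its embryonic stem cell expression, had 0.433 and 0.472 CPM in RA day 21 libraries, against 1508 and 1291 in untreated libraries. ESRG overlaps other annotated genes over its whole length, and so does LINC00678. LINC00678 had 2 counts at RA day 21, 2385-fold lower than in untreated cells with a counting interval of 660 to 19698. VRTN, a protein-coding gene tied to the number of vertebrae in pigs, had 0.149 and 0 CPM in RA day 21 libraries, against 127 and 118 in untreated libraries. These genes were among the 10 largest falls of the whole comparison.

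The miR-302/367 cluster, whose microRNAs are abundant in pluripotent cells and promote their cell cycle, was seen through its host transcript. These 4 mature microRNAs are shown because 3 of them share 1 seed, the bases 2 to 8 in capitals that pair with targets, and all lie on chromosome 4, minus strand (RefSeq, GRCh38.p14).
hsa-miR-302a-3p: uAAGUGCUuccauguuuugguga
hsa-miR-302c-3p: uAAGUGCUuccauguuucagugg
hsa-miR-302d-3p: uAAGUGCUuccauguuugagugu
hsa-miR-367-3p: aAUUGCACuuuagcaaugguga
Total RNA libraries do not measure the mature forms, so counts at these loci are reads of precursors or of genes around them. MIR302A had 4 counts over both RA day 21 libraries and 123 over both untreated libraries. MIR302CHG, the host transcript, had 3 counts over the RA day 21 libraries and 181 over the untreated ones. The ratio for MIR302CHG was 70.3-fold lower at RA day 21, with a counting interval of 23.7 to 344. MIR302C, MIR302D and MIR367 had 1, 3 and 3 counts over the RA day 21 libraries, against 91, 127 and 88 over the untreated libraries. All 5 loci fell by edgeR, with adjusted p from 0.00797 for MIR302CHG to 0.0407 for MIR302A. None of the 5 calls held whichever single library was left out, with edgeR adjusted p up to 0.0753 for MIR302CHG and 0.188 for MIR302A, both without RA day 21 replicate 2. They lie inside LARP7, an RNA-binding protein gene that fell by 2.19 ± 0.19 on the log2 scale. The strand setting of the counts is not given, so reads of LARP7 may be among theirs. These 6 genes were chosen after their values were seen.

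RA breakdown and receptor genes stood higher at day 21 than in untreated cells. Of 16 genes of retinoid breakdown, binding and synthesis that were tested (17 in the list), 8 rose and 3 fell (median log2 fold change 2.50), and without untreated replicate 1 the rises came to 5. CYP26A1 and DHRS3, which returns retinaldehyde to retinol, were chosen after their values were seen. CYP26A1 had 89.2 and 96.0 CPM in RA day 21 libraries, against 8.66 and 19.3 in untreated libraries, a 6.63-fold higher mean, a call lost without untreated replicate 1 (edgeR adjusted p = 0.1). DHRS3 had 155 and 158 CPM in RA day 21 libraries, against 8.94 and 8.24 in untreated libraries.

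The synthesis enzymes changed in both directions. ALDH1A1 had 94.2 and 109 CPM in RA day 21 libraries, against 0.487 and 0.223 in untreated libraries, and ALDH1A2, the main embryonic RA-making enzyme, had 55.5 and 30.5 CPM in RA day 21 libraries, against 0.629 and 0.710 in untreated libraries. ALDH1A3 went the other way, with 3 counts over both RA day 21 libraries, against 7.24 and 11.8 CPM in untreated libraries. Its ratio was 468-fold lower, with a counting interval of 160 to 2270. CRABP1, a carrier of RA in the cytoplasm, fell to 3.94 and 3.64 CPM in RA day 21 libraries, against 61.4 and 66.3 in untreated libraries. CRABP2, the carrier that brings RA to the nucleus (chosen after its values were seen), had 507 and 462 CPM in RA day 21 libraries, against 130 and 156 in untreated libraries, and was not called (edgeR adjusted p = 0.142). Without BMP2 day 10 replicate 1 or replicate 2 it was called higher (edgeR adjusted p = 0.0223 and 0.022).

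Among 14 tested receptors and classical targets of RA (15 in the list), 9 rose and 0 fell (median log2 fold change 2.60). RARB had 54.5 and 57.3 CPM in RA day 21 libraries, against 0.446 and 1.13 in untreated libraries, and RARA had 43.5 and 42.4 CPM in RA day 21 libraries, against 7.18 and 8.57 in untreated libraries. Both RAR genes were chosen after their values were seen, and both rose (log2 fold changes 6.12 ± 0.61 and 2.45 ± 0.23). NR2F1 and NR2F2, orphan nuclear receptors of the hindbrain and mesenchyme, rose 1332-fold and 397-fold. NR2F1 had 128 and 89.4 CPM in RA day 21 libraries, against 0.122 and 0.0418 in untreated libraries. MEIS1 and MEIS2, homeodomain partners of HOX proteins, had mean levels of 203 and 217 CPM in RA day 21 cells, against 0.434 and 2.73 CPM in untreated cells.

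Nearly all anterior and middle genes of the HOX clusters, which set position along the body axis, rose. Of 23 anterior and middle HOX genes (paralog groups 1 to 8), all tested, 22 rose and 0 fell. HOXB1, at the 3' end of its cluster, was the 1 that was not called, with 0.926 and 0.337 CPM in RA day 21 libraries, against 3.0 and 1.56 in untreated libraries (edgeR adjusted p = 0.0523). It was called lower without RA day 21 replicate 1 or any 1 of the BMP2 day 10, RA day 5 and RA day 10 libraries (edgeR adjusted p from 0.0395 to 0.0495). Their median log2 fold change was 11.9, or 9.26 with genes that had no count in a group set at their bound. HOXA3 had 175 and 167 CPM in RA day 21 libraries and 0 counts in both untreated libraries, at least 6907-fold higher when untreated cells are set at 3 counts over both libraries. HOXA2 had 49.5 and 44.5 CPM in RA day 21 libraries and 0 in both untreated libraries, at least 1899-fold higher. HOXA5 reached 252 and 270 CPM in RA day 21 libraries, against 0.142 and 0 in untreated libraries, and its libraries of the 2 states did not overlap. HOXB4, HOXB5, HOXB8 and HOXC5 likewise had no count in untreated cells and averaged 66.5, 52.9, 44.2 and 42.6 CPM in RA day 21 cells. These clusters are dense, and HOXA3, HOXA5, HOXB4, HOXB5, HOXB8 and HOXC5 lie wholly or almost wholly inside other annotated genes, so reads may be shared between neighbours. The antisense transcripts HOXA-AS2 and HOXA-AS3 had no count in untreated cells and averaged 87.5 and 56.3 CPM in RA day 21 cells. With the strand setting not given, their counts may hold reads of the HOXA genes they cross.

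Fewer of the posterior HOX genes were called. Of 16 tested, 9 rose and 0 fell (median log2 fold change 3.39), and the rises came to 5 without RA day 21 replicate 1 and to 3 without untreated replicate 2. HOXB9 had 26.9 and 25 CPM in RA day 21 libraries, against 0.142 and 0.195 in untreated libraries. HOXD9 had 21.2 and 16.8 CPM in RA day 21 libraries, against 0.994 and 0.904 in untreated libraries, and like HOXB9 it lies wholly inside other annotated genes. HOXB13, at the far 5' end of its cluster, had 17.0 and 18.7 CPM in RA day 21 libraries, against 0.284 and 0.0278 in untreated libraries. HOXA13 had 0.0299 and 0 CPM in RA day 21 libraries, against 0.0811 and 0.0278 in untreated libraries, and was not called (edgeR adjusted p = 0.377).

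**Figure D3:**
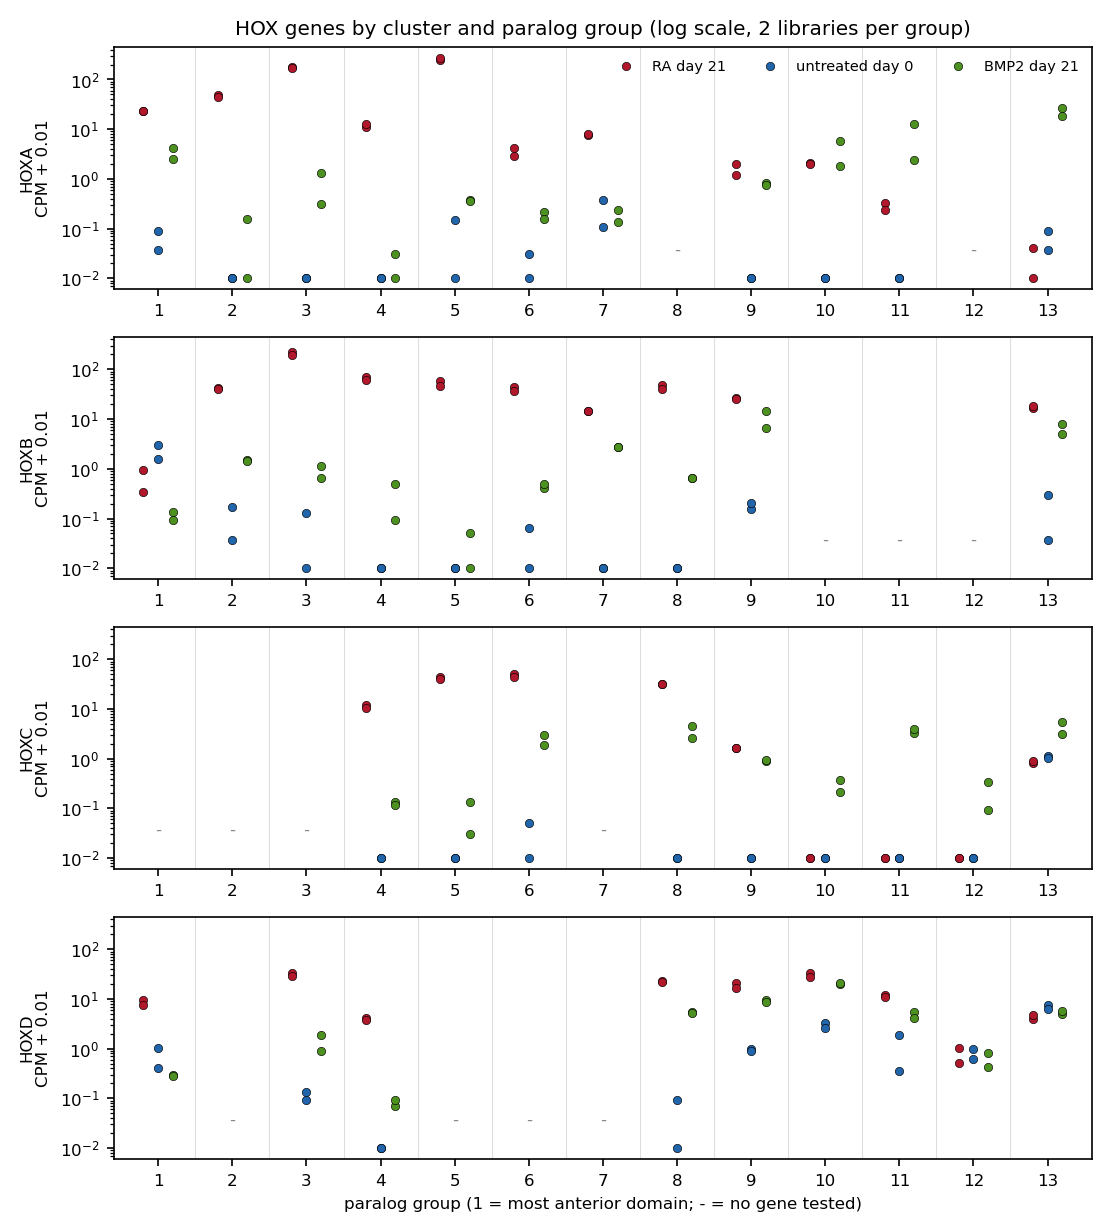
CPM of each HOX gene (vertical log axis, 0.01 added) by paralog group (horizontal axis) in 4 panels, 1 per cluster, with 2 points per gene for the libraries of RA day 21, untreated day 0 and BMP2 day 21. RA day 21 points lie far above the untreated ones through the anterior and middle paralogs other than HOXB1, and at HOXA13 the BMP2 day 21 points, with a mean of 22.4 CPM, lie above both.

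Neural patterning genes were called in both directions. Of 22 tested (26 in the list), 9 rose and 3 fell (median log2 fold change 1.62), and without each of the 4 libraries of this comparison in turn the falls came to 0 or 1. EN1, a midbrain and hindbrain factor that also marks ventral limb ectoderm, had 35.4 and 34.7 CPM in RA day 21 libraries, against 0.0406 and 0.306 in untreated libraries. ZIC4 had 33.0 and 28.1 CPM in RA day 21 libraries, against 0.122 and 0.139 in untreated libraries, and ZIC1, its neighbour on the opposite strand (chosen after its values were seen), had 98.2 and 75.5 CPM in RA day 21 libraries, against 1.18 and 0.264 in untreated libraries. Most of ZIC4 lies inside other annotated genes. PAX7, a dorsal neural tube and crest factor, had 5.27 and 4.90 CPM in RA day 21 libraries, against 2 counts over both untreated libraries, 308-fold higher with a counting interval of 84.9 to 2546. LHX9 had 6.35 and 4.07 CPM in RA day 21 libraries and 0 counts in untreated libraries, at least 210-fold higher.

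Progenitor genes were called in both directions, the rises near the share of all genes. Of 16 tested neural progenitor and radial glia genes, 4 rose and 2 fell (median log2 fold change -0.05). HES1, a Notch effector, had 97.6 and 106 CPM in RA day 21 libraries, against 19.3 and 24.7 in untreated libraries. PROM1, a membrane protein of progenitors, had 41.1 and 42.2 CPM in RA day 21 libraries, against 190 and 178 in untreated libraries. NES, the intermediate filament nestin, had 132 and 140 CPM in RA day 21 libraries, against 382 and 430 in untreated libraries, and did not pass the test (edgeR adjusted p = 0.157). Without BMP2 day 10 replicate 1 or replicate 2 it was called lower (edgeR adjusted p = 0.00374 and 0.00366). SOX1, an early neural plate factor, had 0.0598 and 0 CPM in RA day 21 libraries, against 0.243 and 0.0278 in untreated libraries, and the groups overlapped (edgeR adjusted p = 0.26). OLIG2, a factor of motor neuron and oligodendrocyte progenitors, fell to 0.149 and 0.162 CPM in RA day 21 libraries, against 4.64 and 3.62 in untreated libraries.

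Neuronal cytoskeleton genes were called in both directions, 21.4% higher and 35.7% lower, against 23.4% and 21.1% of all genes. In the 14 tested neuronal cytoskeleton genes 3 rose and 5 fell (median log2 fold change -0.57), and the falls came to 3 without RA day 21 replicate 1 and to 2 without RA day 21 replicate 2 or without untreated replicate 1. NEFM, the medium neurofilament chain, had 358 and 359 CPM in RA day 21 libraries, against 32 and 28.4 in untreated libraries, a log2 fold change of 3.57 ± 0.34 (edgeR adjusted p = 9.76e-05). MAP2, a dendritic microtubule protein, had 133 and 171 CPM in RA day 21 libraries, against 30.9 and 33.4 in untreated libraries. INA, a neurofilament partner of early neurons, had 47.6 and 54.6 CPM in RA day 21 libraries, against 140 and 203 in untreated libraries. CRMP1, a protein of growth cones, also fell, to 52.5 and 58.7 CPM in RA day 21 libraries, against 163 and 105 in untreated libraries. DCX, the microtubule protein of migrating young neurons, had 6.54 and 4.61 CPM in RA day 21 libraries, against 21.1 and 5.26 in untreated libraries, and did not pass the test (edgeR adjusted p = 0.119). It was called lower without untreated replicate 2 (edgeR adjusted p = 0.0224), and without untreated replicate 1 its log2 fold change was 0.087.

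Few proneural genes were called. Of 19 tested proneural and neuronal differentiation genes (21 in the list), 2 rose and 2 fell (median log2 fold change -1.24, or -1.05 at the bounds), and without any 1 of the 4 libraries 0 rose. INSM1, a factor of newborn neurons and endocrine cells, had 2 counts over both RA day 21 libraries, against 4.46 and 10.4 CPM in untreated libraries, 565-fold lower with a counting interval of 156 to 4672. NEUROG2 and NEUROD1, proneural factors chosen after their values were seen, had at most 0.108 CPM in any of the 4 libraries.

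Secretory and synaptic genes were called in both directions, the rises near the share of all genes. Of 27 tested (29 in the list) 6 rose (22.2%) and 9 fell (33.3%), against 23.4% and 21.1% of all genes. The median log2 fold change was 0.00. The rises came to 3 without RA day 21 replicate 1 or replicate 2 and to 2 without untreated replicate 2, and the falls to 5 and 4 without RA day 21 replicate 1 and replicate 2. SNAP25, part of the vesicle fusion machinery, had 32.5 and 30.0 CPM in RA day 21 libraries, against 1.09 and 0.751 in untreated libraries, and overlaps other annotated genes throughout. VAMP2, its partner on the vesicle, had 40.9 and 43 CPM in RA day 21 libraries, against 14.9 and 12.8 in untreated libraries. SCG3, a granin of dense-core vesicles, had 0.418 and 0.296 CPM in RA day 21 libraries, against 89.8 and 67.4 in untreated libraries. VGF, a neuropeptide precursor, was 33.6-fold lower, and CPLX2, a regulator of release, 217-fold lower at RA day 21 on average.

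Channel and receptor genes of neurons were called 50.0% higher and 21.4% lower, against 23.4% and 21.1% of all genes. The falls were thus near the share of all genes. Of 28 tested channel and receptor genes 14 rose and 6 fell (median log2 fold change 1.76), and the rises came to 7 without RA day 21 replicate 1 or replicate 2 and to 3 without untreated replicate 2. SCN9A, a sodium channel of sensory neurons, had 27.5 and 33.8 CPM in RA day 21 libraries, against 2.09 and 2.30 in untreated libraries. GRIK3, a kainate receptor subunit, fell 67.1-fold on average. OPCML, a cell adhesion protein of neurons, had 55.4 and 81.8 CPM in RA day 21 libraries, against 1.09 and 1.16 in untreated libraries.

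Axon guidance genes were mostly higher. Of 26 tested, 14 rose and 1 fell (median log2 fold change 1.69), and without untreated replicate 2 the rises came to 9. SEMA3C, a secreted semaphorin, had 747 and 806 CPM in RA day 21 libraries, against 0.974 and 3.03 in untreated libraries, a log2 fold change of 8.58 ± 0.82 (edgeR adjusted p = 9.9e-05). SLIT2 and SLIT3, secreted repellents, had means of 175 and 79.8 CPM in RA day 21 cells, against 6.29 and 2.58 CPM in untreated cells. RELN, which guides cortical layering, and UNC5C, a netrin receptor, rose 76.2-fold and 82.9-fold. Many of these secreted cues are also made by mesenchyme, whose markers were high in the same libraries, and the part of those cells in these values was not tested.

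Glial and neural crest genes were called in both directions, the falls of both lists near the share of all genes. Of 17 tested astrocyte and oligodendrocyte markers, 7 rose and 4 fell, against 23.4% and 21.1% of all genes. The rises came to 3 without untreated replicate 2 and the falls to 2 without either RA day 21 replicate. AGT, angiotensinogen, an astrocyte and liver protein, had 17.4 and 19.7 CPM in RA day 21 libraries, against 0 and 0.195 in untreated libraries. PTPRZ1, a receptor phosphatase of radial glia, had 4.89 and 5.66 CPM in RA day 21 libraries, against 485 and 412 in untreated libraries. PTN, a ligand of that receptor, moved the other way, with 338 and 336 CPM in RA day 21 libraries, against 41.9 and 43.2 in untreated libraries. GFAP, the filament of astrocytes, was at 0.149 and 0.027 CPM in RA day 21 libraries, against 0.365 and 0.0974 in untreated libraries. Of 16 tested neural crest and Schwann markers 6 rose and 4 fell, against the same shares of all genes. The rises of this list came to 3 without either RA day 21 replicate and the falls to 2 without RA day 21 replicate 2. TWIST1, shared by crest and mesenchyme, had 42.6 and 42.7 CPM in RA day 21 libraries, against 3.18 and 4.11 in untreated libraries, while ERBB3, a receptor of Schwann cell precursors, fell to 0.717 and 0.754 CPM in RA day 21 libraries, against 38.0 and 20.8 in untreated libraries.

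Many genes of the extracellular matrix and of mesenchyme rose. Of 21 tested fibroblast and mesenchyme markers 14 rose and 1 fell (median log2 fold change 3.42). Of 30 tested collagen chain genes 16 rose and 0 fell (median 1.98), with 10 rises left without RA day 21 replicate 2. COL3A1 had 5340 and 5369 CPM in RA day 21 libraries, against 2.92 and 0.334 in untreated libraries, a log2 fold change of 11.72 ± 2.11 (edgeR adjusted p = 0.00169). COL11A1, a fibrillar chain of cartilage and other embryonic matrix, had 1599 and 2083 CPM in RA day 21 libraries, against 7.58 and 4.08 in untreated libraries. COL5A2 had 844 and 966 CPM in RA day 21 libraries, against 15.5 and 8.40 in untreated libraries. COL2A1, the main collagen of cartilage and notochord, had 361 and 362 CPM in RA day 21 libraries, against 3.45 and 1.67 in untreated libraries. COL1A1, the main collagen of skin and bone (chosen after its values were seen), had 98.2 and 116 CPM in RA day 21 libraries, against 6.21 and 19.98 in untreated libraries. The call of COL1A1 was lost without any 1 of those 4 libraries or either BMP2 day 21 library (edgeR adjusted p from 0.0557 to 0.199).

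The transcription factors PRRX1 and TCF21 of the mesenchyme list both rose. PRRX1, a factor of limb and craniofacial mesenchyme, had 161 and 137 CPM in RA day 21 libraries, against 0.568 and 0.724 in untreated libraries. TCF21, a factor of visceral mesoderm and fibroblasts, had 36.6 and 36.8 CPM in RA day 21 libraries, against 0.385 and 0.111 in untreated libraries. POSTN, a matricellular protein, had 293 and 272 CPM in RA day 21 libraries, against 4.58 and 7.54 in untreated libraries. THY1, a surface glycoprotein that pluripotent cells also carry, was the 1 marker that fell, to 28.6 and 42.3 CPM in RA day 21 libraries, against 227 and 218 in untreated libraries, and it overlaps other annotated genes throughout. Of 27 tested proteoglycans and matrix glycoproteins (29 in the list) 13 rose and 0 fell, or 7 without untreated replicate 2. MGP, an inhibitor of calcification, had 95.3 and 235 CPM in RA day 21 libraries, against 4 counts over both untreated libraries, and replicate 2 was the higher of the 2 RA day 21 libraries. MGP overlaps other annotated genes throughout.

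Of 25 tested matrix proteases, inhibitors and lysyl oxidases 12 rose and 3 fell. MMP14, a membrane collagenase, had 271 and 353 CPM in RA day 21 libraries, against 33.6 and 13.5 in untreated libraries, and ADAMTS5, an aggrecanase, rose 127-fold on average. MMP15, a sister of MMP14, had 7.20 and 9.0 CPM in RA day 21 libraries, against 76.0 and 61.9 in untreated libraries. The 4 smooth muscle markers summed to 83.2 and 120.5 CPM in RA day 21 libraries, against 35.1 and 88.0 in untreated libraries. Of 14 tested smooth muscle and contractile genes 2 rose and 1 fell, and of 17 tested cardiac and skeletal muscle genes 2 rose and 3 fell. LMOD1, an actin nucleator of smooth muscle, had 21.6 and 31.5 CPM in RA day 21 libraries, against 0.122 and 0.0278 in untreated libraries, and ACTC1, the cardiac actin, fell to 0.179 and 0.189 CPM in RA day 21 libraries, against 5.42 and 17.6 in untreated libraries.

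Genes of secreted signals changed in both directions. Of 36 tested WNT ligands, receptors and inhibitors (37 in the list) 20 rose and 4 fell (median log2 fold change 1.60), and the falls came to 2 without either RA day 21 replicate. WNT2B, a canonical WNT ligand, had 1436 and 1273 CPM in RA day 21 libraries, against 2.88 and 1.98 in untreated libraries, a log2 fold change of 9.13 ± 1.05 (edgeR adjusted p = 0.00019). RSPO3, which strengthens WNT signals at the receptor, rose 197-fold. SFRP4 and SFRP2, secreted WNT inhibitors, moved in opposite directions. SFRP4 had 68.1 and 64.2 CPM in RA day 21 libraries, against 0.0811 and 0 in untreated libraries, and SFRP2 had 5.14 and 4.28 CPM in RA day 21 libraries, against 321 and 365 in untreated libraries. FZD5, a receptor, fell 13.5-fold.

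Of 27 tested BMP and TGF-beta genes 11 rose and 2 fell, and the rises came to 7 without RA day 21 replicate 2 or untreated replicate 1 and to 6 without untreated replicate 2. TGFB2, a TGF-beta ligand, had 78.6 and 94.0 CPM in RA day 21 libraries, against 0.284 and 0.779 in untreated libraries. MSX1, a homeobox target of BMP signals, had 44.8 and 37.1 CPM in RA day 21 libraries, against 0.284 and 0.348 in untreated libraries. FST, follistatin, an activin inhibitor, fell to 8.74 and 13.8 CPM in RA day 21 libraries, against 52.0 and 85.8 in untreated libraries. Of 22 tested FGF ligands and receptors 4 rose and 12 fell (median log2 fold change -1.30), and the falls came to 6 without RA day 21 replicate 1 and the rises to 2 without untreated replicate 2. FGF4, a target of OCT4 and SOX2, had 2 counts over both RA day 21 libraries, against 16.1 and 18.8 CPM in untreated libraries, 1250-fold lower with a counting interval of 346 to 10329. FGF19 fell 254-fold, and the receptors FGFR3 and FGFR4 fell 21.4-fold and 27.5-fold. FGF9, a mesenchymal and neuronal ligand, had 17.4 and 19.4 CPM in RA day 21 libraries, against 0.365 and 0.417 in untreated libraries.

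More imprinted and insulin-like growth factor (IGF) genes rose than fell. Of 14 imprinted growth genes, all tested, 8 rose and 1 fell (median log2 fold change 1.70). IGF2, the fetal growth factor whose gene lies beside H19, had 863 and 660 CPM in RA day 21 libraries, against 1.44 and 2.35 in untreated libraries, a log2 fold change of 8.64 ± 0.79 (edgeR adjusted p = 8.66e-05). MEST had 778 and 931 CPM in RA day 21 libraries, against 30.5 and 22.1 in untreated libraries. Of 15 tested IGF axis genes 7 rose and 2 fell. IGF1 had 34.0 and 26.4 CPM in RA day 21 libraries, against 0.162 and 0 in untreated libraries. The IGF-binding proteins IGFBP5 and IGFBP3 rose 278-fold and 140-fold, with RA day 21 means of 726 and 681 CPM, against untreated means of 2.61 and 4.86 CPM.

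Some of the genes that let-7 microRNAs are known to repress fell. Of 12 tested let-7 repressed oncofetal genes 7 fell and 0 rose (median log2 fold change -1.82). LIN28B, the sister of LIN28A, had 59.6 and 63.1 CPM in RA day 21 libraries, against 215 and 212 in untreated libraries. TRIM71, a stem cell ubiquitin ligase, had 4.53 and 3.76 CPM in RA day 21 libraries, against 516 and 530 in untreated libraries. ARID3B fell 12.2-fold, and IGF2BP1, an RNA-binding protein of fetal tissue, fell 3.58-fold to 208 and 195 CPM in RA day 21 libraries, against 710 and 732 in untreated libraries.

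**Figure D4:**
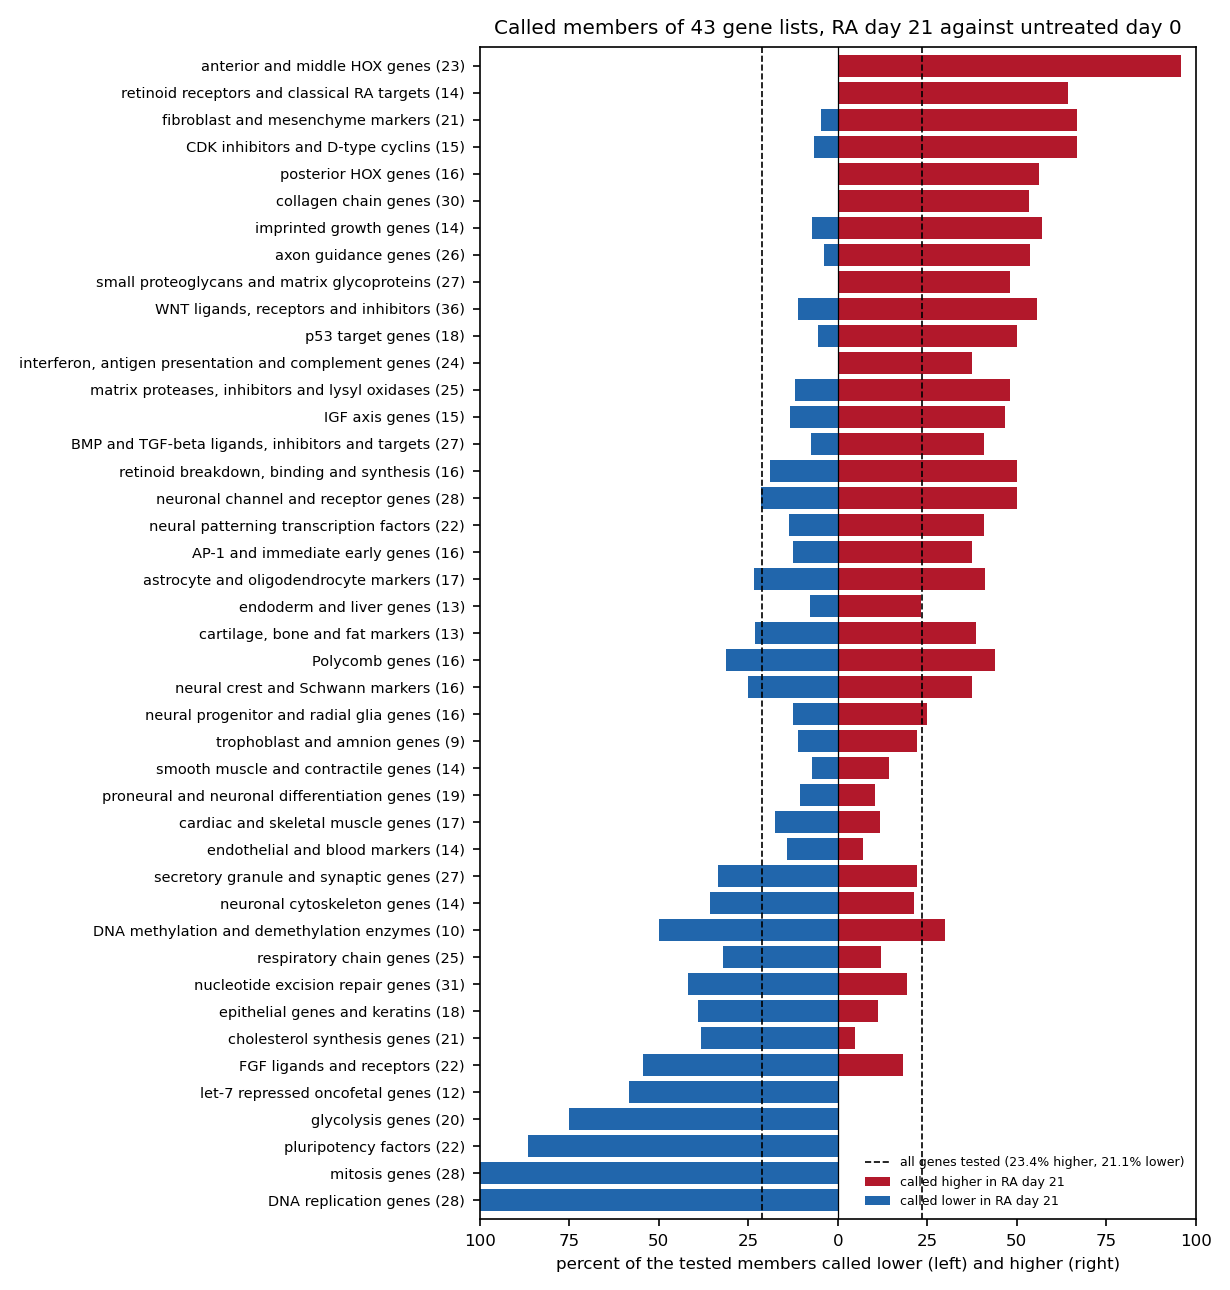
Percent of tested members of each of the 43 gene lists that were higher (right) and lower (left) in RA day 21 than in untreated day 0 cells, with dashed lines at the 23.4% and 21.1% of all tested genes. Mitosis, DNA replication, pluripotency and glycolysis lists lie far into the lower side, and the anterior and middle HOX list far into the higher side.

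Cell division genes fell as a body. All 28 mitosis genes and all 28 DNA replication genes fell, with median log2 fold changes of -1.96 and -1.94, against 0.10 over all genes. Without any 1 library at least 21 of the 28 mitosis and 24 of the 28 replication genes still fell. MKI67, the Ki-67 proliferation antigen, had 152 and 131 CPM in RA day 21 libraries, against 616 and 486 in untreated libraries. CDC20, which activates the anaphase-promoting complex, had 55.8 and 51.6 CPM in RA day 21 libraries, against 342 and 363 in untreated libraries. ORC1, the largest origin recognition subunit, fell furthest of the replication genes given here, to 13.2 and 11.8 CPM in RA day 21 libraries, against 160 and 203 in untreated libraries. PCNA, the polymerase clamp, had 115 and 128 CPM in RA day 21 libraries, against 305 and 303 in untreated libraries. The levels that remained were well above zero, from 2.50-fold lower for PCNA to 14.5-fold lower for ORC1.

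The promoters of these 2 groups carry different known cell cycle letters. TTTGAA, the CHR element of genes expressed in mitosis, was found on either strand in 17 of 23 mitosis genes with a window (73.9%), in 1 of 25 replication genes (4.0%), and in 4961 of 27305 RefSeq genes (18.2%). TTTCCCGC, a form of the E2F element of genes expressed in S phase, was found in 8 of 25 replication genes (32%), in 1 of 23 mitosis genes (4.35%), and in 1.98% of all. A second form, TTTGGCGC, was found in 6 of 25 replication genes (24.0%), in 1 of 23 mitosis genes and in 0.795% of all. Over the genes tested here with a window the 3 shares were 14.8%, 2.87% and 1.15%. The promoters of CDC20 (chr1:43358831-43358980, plus strand) and PCNA (chr20:5126623-5126772, minus strand) are shown as an example of each, with the CHR letters of CDC20 and the E2F letters of PCNA, read on the other strand, in capitals.
CDC20: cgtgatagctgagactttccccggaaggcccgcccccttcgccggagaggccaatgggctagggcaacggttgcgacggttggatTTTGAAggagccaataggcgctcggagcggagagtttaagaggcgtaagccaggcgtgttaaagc
PCNA: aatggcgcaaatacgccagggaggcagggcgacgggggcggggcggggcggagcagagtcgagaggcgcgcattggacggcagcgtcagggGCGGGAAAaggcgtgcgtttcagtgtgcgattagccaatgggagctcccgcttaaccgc
The letters lie 65 to 60 bases before the start of CDC20 and 59 to 52 bases before that of PCNA.

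Regulators of the step from G1 to S phase were mostly higher. The list of CDK inhibitors and D-type cyclins holds both brakes and drivers of the cycle, with CDK4, CDK6 and the RB family, and of its 15 tested members 10 rose and 1 fell (median log2 fold change 1.59), and without untreated replicate 1 the rises came to 6. CDKN2B, which blocks CDK4 and CDK6, had 144 and 204 CPM in RA day 21 libraries, against 0.406 and 1.28 in untreated libraries, and shares its whole span with other annotated genes. CDKN2C, of the same family, had 5.87 and 6.25 CPM in RA day 21 libraries, against 0.122 and 0.139 in untreated libraries. CDKN1A, the inhibitor p21, had 136 and 206 CPM in RA day 21 libraries, against 7.46 and 10.1 in untreated libraries. Its log2 fold change was 4.28 ± 1.22 (edgeR adjusted p = 0.0168), and the call was lost without RA day 21 replicate 2 and without either untreated replicate. Of 18 tested p53 target genes, a list that includes CDKN1A, 9 rose and 1 fell, with 3 rises left without RA day 21 replicate 2 or untreated replicate 1 and 5 without untreated replicate 2. BTG2, an antiproliferative protein, had 323 and 298 CPM in RA day 21 libraries, against 6.65 and 14.5 in untreated libraries, and PHLDA3, an inhibitor of AKT, had 233 and 316 CPM in RA day 21 libraries, against 26.6 and 36.3 in untreated libraries.

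Nucleotide excision repair genes, the subject of the study, changed in both directions. Of 31 tested (32 in the list) 6 rose and 13 fell, against 23.4% and 21.1% of all genes, with a median log2 fold change of -0.03. The rises came to 2 without RA day 21 replicate 2 or untreated replicate 1, and the falls to 8 and 7 without RA day 21 replicate 1 and replicate 2. Without a BMP2 day 10 library the rises came to 10. ERCC1 and ERCC4, which together cut 5' of a lesion, had means of 36.2 and 32.9 CPM in RA day 21 cells, against 18.2 and 16.7 CPM in untreated cells. GTF2H2, a TFIIH subunit with near-identical gene copies whose reads may be split, fell 2.68-fold. The ligases LIG1 and LIG3 and the polymerase subunit POLD1, which also serve DNA replication, fell 2.58-fold, 2.39-fold and 2.72-fold.

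Most of the tested genes of glycolysis fell. Of 20 tested glycolysis genes 15 fell and 0 rose (median log2 fold change -1.39). SLC2A3, a neuronal-type glucose transporter that pluripotent cells also use, had 223 and 228 CPM in RA day 21 libraries, against 1360 and 1722 in untreated libraries. HK1, hexokinase, had 57.3 and 60.7 CPM in RA day 21 libraries, against 375 and 332 in untreated libraries. GAPDH, often taken as a constant reference, had 1868 and 1950 CPM in RA day 21 libraries, against 5462 and 5214 in untreated libraries, a log2 fold change of -1.48 ± 0.18 (edgeR adjusted p = 0.000247). Of 25 tested respiratory chain genes 3 rose and 8 fell, the rises coming to 1 without RA day 21 replicate 1 or untreated replicate 2. ATP5F1B, the catalytic subunit of ATP synthase, fell 3.32-fold and CYCS, cytochrome c, 3.10-fold. Of 21 tested cholesterol synthesis genes 1 rose and 8 fell, and the falls came to between 3 and 5 without each of the 4 libraries in turn, 3 of them without RA day 21 replicate 1.

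Chromatin modifiers moved in both directions. Of 10 tested DNA methylation and demethylation enzymes 3 rose and 5 fell. Beside DNMT3B, the maintenance enzyme DNMT1 fell to 145 and 140 CPM in RA day 21 libraries, against 444 and 432 in untreated libraries. TET1 and TET2, which oxidise methylcytosine, moved in opposite directions, with means of 22.3 and 47.0 CPM in RA day 21 cells, against 103 and 14.2 CPM in untreated cells. Of 16 tested Polycomb genes 7 rose and 5 fell, and the rises came to 4 without untreated replicate 1. JARID2, a subunit of Polycomb complex 2 in stem cells, had 35.9 and 34.2 CPM in RA day 21 libraries, against 208 and 208 in untreated libraries, and EZH2, its methyltransferase, had 44.7 and 43 CPM in RA day 21 libraries, against 144 and 138 in untreated libraries. RING1, of Polycomb complex 1, rose 6.48-fold.

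The complement gene CFI rose, and early response factors changed in both directions. CFI, the protease that inactivates complement, had 740 and 661 CPM in RA day 21 libraries and 2 counts over both untreated libraries, 42320-fold higher with a counting interval of 11715 to 349457. Of 24 tested interferon, antigen presentation and complement genes 9 rose and 0 fell, but the rises came to between 3 and 5 without each of the 4 libraries in turn, 3 of them without untreated replicate 2, and to 15 without a BMP2 day 10 library. STAT2, which carries interferon signals, had 92.5 and 96.1 CPM in RA day 21 libraries, against 17.3 and 14.6 in untreated libraries. Of 16 tested AP-1 and immediate early genes 6 rose and 2 fell, with 3 rises left without any 1 of the 4 libraries. JUND had 159 and 187 CPM in RA day 21 libraries, against 62.0 and 44.0 in untreated libraries, and MYC fell to 13.2 and 16.9 CPM in RA day 21 libraries, against 55.7 and 86.6 in untreated libraries.

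The comparison with RA day 10 asks which day 21 levels were reached in the last part of the induction. Between RA day 21 and RA day 10, 1883 of 19142 genes were called by edgeR, 9.84% of those tested, with 856 higher (4.47%) and 1027 lower (5.37%) at day 21. This count rests on single libraries, since it came to 24 without RA day 21 replicate 1, 21 without RA day 21 replicate 2, 594 without RA day 10 replicate 1 and 96 without RA day 10 replicate 2. NPNT, a matrix ligand of integrins, had 99.5 and 144 CPM in RA day 21 libraries, against 1.16 and 1.27 in RA day 10 libraries, a log2 fold change of 6.64 ± 0.73 (edgeR adjusted p = 0.00449) and of the 65 genes named here and called in this comparison it was the 1 whose call held whichever single library was left out. HOPX, IL33 and NFIX, a homeodomain protein, an alarmin and a late gliogenic factor, averaged 23.2, 38.4 and 76.2 CPM in RA day 21 cells, against 0.157, 0.212 and 0.680 CPM in RA day 10 cells. DCX averaged 5.58 CPM in RA day 21 cells, against 112 CPM in RA day 10 cells, and CNTN2, an axonal adhesion protein, 0.211 against 25.9 CPM. HOXB1, which RA switches on early in the hindbrain, averaged 0.632 CPM in RA day 21 cells, against 46.8 CPM in RA day 10 cells, and HOXA5 averaged 261 CPM in RA day 21 cells, against 260 CPM in RA day 10 cells. The 3 end-state markers CYP26B1, H19 and PAX6 were not called here (edgeR adjusted p = 0.114, 0.123 and 0.529). They averaged 865, 15078 and 65.5 CPM in RA day 21 cells, against 217, 4928 and 43.2 CPM in RA day 10 cells. Of the 28 mitosis genes 16 were lower and of the 28 replication genes 20 were lower at day 21 than at day 10, both against 5.37% of all genes, but 0 of either list were called without RA day 21 replicate 1, RA day 21 replicate 2 or RA day 10 replicate 2.

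The comparison with BMP2 at the same day asks which levels differed between the 2 treatments. Between RA day 21 and BMP2 day 21, 2308 of 19142 genes were called by edgeR, 12.1% of those tested, with 1146 higher (5.99%) and 1162 lower (6.07%) in RA day 21 cells. The count came to 289 without RA day 21 replicate 1, 344 without RA day 21 replicate 2, 1081 without BMP2 day 21 replicate 1, and 626 without BMP2 day 21 replicate 2, and to 4229 and 4212 without BMP2 day 10 replicate 1 and replicate 2. The single genes given next as called kept their call without any 1 library. How far the list counts held without single libraries is not given here. Of 23 anterior and middle HOX genes 21 were higher in RA day 21 cells, against 5.99% of all genes, with a median log2 fold change of 5.74. HOXA5 had 252 and 270 CPM in RA day 21 libraries, against 0.370 and 0.357 in BMP2 day 21 libraries, a log2 fold change of 9.48 ± 0.65 (edgeR adjusted p = 0.00015). HOXA13 had 0.0299 and 0 CPM in RA day 21 libraries, against 18.3 and 26.7 in BMP2 day 21 libraries, a difference of -10.42 ± 1.20 (edgeR adjusted p = 0.00149). PITX1, a hindlimb factor, had 0 and 0.216 CPM in RA day 21 libraries, against 31.1 and 56.3 in BMP2 day 21 libraries. Of 22 pluripotency factors 3 were higher and 1 lower in RA day 21 cells. Their median log2 fold change was -0.03 here, against -5.96 in the comparison with day 0. Of 28 mitosis genes 4 were higher and 0 lower, of 28 replication genes 0 were called, and of 20 glycolysis genes 0 were higher and 1 lower. A gene that was not called is not thereby shown to be level.

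Of the end-state markers, CYP26B1 and PAX6 were higher in RA day 21 than in BMP2 day 21 cells, and H19 was not called. CYP26B1 had 934 and 796 CPM in RA day 21 libraries, against 0.698 and 1.01 in BMP2 day 21 libraries (log2 fold change 9.98 ± 1.08, edgeR adjusted p = 0.00116). PAX6 had 68.7 and 62.4 CPM in RA day 21 libraries, against 1.85 and 2.69 in BMP2 day 21 libraries (log2 fold change 4.85 ± 0.68, edgeR adjusted p = 0.00317). H19 averaged 15078 CPM in RA day 21 cells, against 8844 CPM in BMP2 day 21 cells, and did not pass the test (edgeR adjusted p = 0.434). NEFM had 358 and 359 CPM in RA day 21 libraries, against 52.8 and 75.1 in BMP2 day 21 libraries. DCX, whose call without single libraries is not given here, went the other way. It averaged 5.58 CPM in RA day 21 cells, against 33.4 CPM in BMP2 day 21 cells (log2 fold change -2.58 ± 0.62, edgeR adjusted p = 0.0271). Of 14 tested neuronal cytoskeleton genes 3 were higher (21.4%) and 1 lower (7.14%), against 5.99% and 6.07% of all genes. The fibroblast markers summed to 5851 and 5890 CPM in RA day 21 libraries, against 33791 and 32557 in BMP2 day 21 libraries. LUM, a small collagen-binding proteoglycan, had 21.9 and 25.1 CPM in RA day 21 libraries, against 4799 and 4385 in BMP2 day 21 libraries, and COL6A3 had 1.49 and 0.835 CPM in RA day 21 libraries, against 521 and 261 in BMP2 day 21 libraries. IGF2 had 863 and 660 CPM in RA day 21 libraries, against 87.1 and 27.6 in BMP2 day 21 libraries. COL3A1 had 5340 and 5369 CPM in RA day 21 libraries, against 21948 and 19563 in BMP2 day 21 libraries, and was not called (log2 fold change -1.96 ± 1.39, edgeR adjusted p = 0.378).

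**Figure D5:**
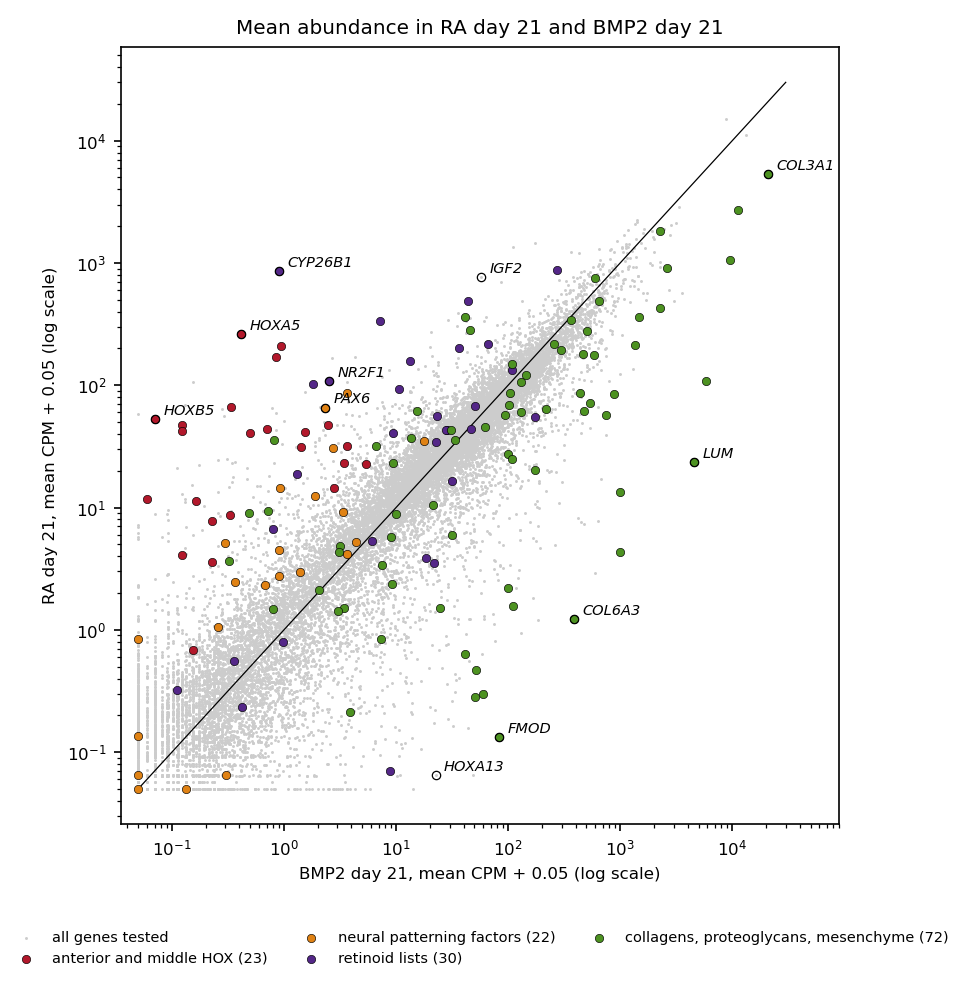
Mean CPM of the tested genes in RA day 21 cells (vertical axis) and BMP2 day 21 cells (horizontal axis), both on log axes with 0.05 added, with gene lists in colour and a line of equal levels. CYP26B1 and HOXA5 lie far above the line, and HOXA13, LUM and COL6A3 far below it.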

How the data were processed

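Per the labels' protocols, total RNA of NT2 cells was sequenced from Illumina libraries. The deposited count table holds the authors' whole-number read counts of 25952 Ensembl genes, and a second deposited table holds the authors' RPKM of the same genes. The submitters' processing notes name STAR, featureCounts, DESeq2 and hg19. Versions, roles and strand setting are not given in the sources used here, nor whether reads in introns were counted. Symbols came from a reference list (25146 identifiers) or GENCODE v29 (126). Overlap of genes was taken from that annotation, which is on another build, so no coordinates of counted genes are given.

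Groups came from sample titles. A mean per group was fitted over all 14 libraries with edgeR 4.0.16 (R 4.3.3), TMM factors, genes kept by filterByExpr (minimum count 10), and the quasi-likelihood F test. Calls have a Benjamini-Hochberg adjusted p under 0.05. This kept 19142 genes with 99.987% of the counts, 7 residual degrees of freedom, 3.08 from the prior, and a biological coefficient of variation of 0.368 in common. The SE was computed as log2 fold change divided by √F, for 3 comparisons. An exact permutation test of 2 against 2 libraries cannot go below a two-sided p of 0.333, so none is given. Ratios with 1 to 3 counts in a group have exact 95% intervals, and folds against no counts use 3 counts over that group, both for counting error alone. The script was tested on simulated data.

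The compared groups, the 43 gene lists (850 different genes found) and the naming rule were chosen with earlier results of these data known. The rule names the 3 end-state markers, up to 4 called rises and falls per list with at least 5 CPM, the 10 largest rises and falls over all genes with at least 20 CPM and no overlap, 30 markers, and the 6 largest in each direction of the other 2 comparisons. Other genes are marked as chosen after their values were seen, apart from fixed cell type markers. Genes not in the table used (TUBB3, NEFL, PECAM1, UHRF1 and 6 others) were not analysed here, and some genes under the rule are not reported here.

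The alternatives tried were a replicate block, RLE factors, all genes without the filter, CPM of at least 1 in 2 libraries, robust dispersions, a test for at least a 2-fold change, DESeq2 1.42.0, the 4 libraries alone, limma 3.58.1 on log2(RPKM + 1) and log2(RPKM + 0.1), and each library left out in turn. A lone library is then assumed to vary like the other groups. limma on RPKM divided by TMM factors was chosen after seeing the data. Promoter and microRNA sequences are RefSeq's. Python 3.11.15 and matplotlib drew the figures.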

Additional observations from a re-analysis of the deposited data

How the results depend on the processing

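The calls of RA day 21 against untreated day 0 were 8529 in all, with 4487 higher and 4042 lower, and under 9 other settings they stayed within 1.5 times of that. A test for at least a 2-fold change left 3187, with 1890 higher and 1297 lower, and limma on RPKM divided by TMM factors, added after seeing the data, gave 2769 higher. Leaving out 1 library gave 5271 to 9850 calls, 2662 to 5273 higher and 2424 to 4582 lower. Against RA day 10 the 1883 calls (856 higher, 1027 lower) became 56 (29 and 27) in the 2-fold test, 4070 (1694 and 2376) in DESeq2 and 4984 (2419 and 2565) with the 4 libraries alone, and without 1 library 21 to 3984 (16 to 1948 higher, 5 to 2043 lower). Against BMP2 day 21 the 2308 calls (1146 higher, 1162 lower) became 395 (163 and 232) in the 2-fold test, 4236 (1962 and 2274) in DESeq2 and 5326 (2514 and 2812) with the 4 libraries alone, and without 1 library 289 to 4229 (155 to 2070 higher, 134 to 2159 lower). There limma on log2(RPKM + 1) and log2(RPKM + 0.1) called 1886 and 1864 higher and 658 and 685 lower, against 1146 and 1162 by edgeR. These limma fits moved the median log2 fold change over all genes by 0.14 and 0.16 in the comparison with day 0. The cause was not tested. Same-numbered libraries did not deviate together (r = 0.0434, 0.00991 and 0.0637), so replicate numbers were not taken to pair libraries, and with a replicate block the 3 comparisons had 8142, 1482 and 2019 calls. Of genes named that were not called, 4 changed direction against day 0 without 1 untreated library. The log2 fold change of DCX was 0.087 without replicate 1 (lowest value without any library -1.92), of SOX1 0.065 without replicate 1 (lowest -5.93), of LEFTY2 0.18 without replicate 2 (lowest -2.89), and of NODAL 0.46 without replicate 2 (lowest -1.12). HES5, ALB and NEUROD1 gave no value where their only counts were left out. Of the 166 named genes called against day 0, 155 were called in the 2-fold test and 164 in DESeq2.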

Other observations

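Genes of 5 other lineage lists were called in both directions. Of 18 tested epithelial genes and keratins 2 rose and 7 fell, against 23.4% and 21.1% of all genes, and the falls came to 2 without RA day 21 replicate 1, 3 without RA day 21 replicate 2 and 4 without untreated replicate 2. EPCAM, an epithelial adhesion protein that pluripotent cells also carry, had 22.8 and 25.6 CPM in RA day 21 libraries, against 211 and 197 in untreated libraries, a call lost without RA day 21 replicate 1 or replicate 2 (edgeR adjusted p = 0.0648 and 0.0569). ESRP1, a splicing regulator of epithelia, had 7.28 and 8.14 CPM in RA day 21 libraries, against 57.1 and 48.5 in untreated libraries, and PKP2, a desmosome protein, had 237 and 285 CPM in RA day 21 libraries, against 58.6 and 80.2 in untreated libraries. Of 13 tested endoderm and liver genes 3 rose (23.1%) and 1 fell (7.69%). Of 9 tested trophoblast and amnion genes 2 rose (22.2%) and 1 fell (11.1%). In both lists the rises were near the share of all genes and the falls below it. The median log2 fold changes of these 3 lists were -1.51, 0.00 and 1.62, the last 1.02 with genes that had no count in a group set at their bound. GATA6, a factor shared by endoderm and heart mesoderm, had 59.4 and 56.1 CPM in RA day 21 libraries, against 0.548 and 0.264 in untreated libraries, while SOX17 and TTR had no count in the RA day 21 libraries. TFAP2C, a factor of trophoblast and germ cells, had 0.478 and 1.08 CPM in RA day 21 libraries, against 33.3 and 40.3 in untreated libraries. Of 14 tested endothelial and blood markers 1 rose (7.14%) and 2 fell (14.3%), both below the share of all genes (median -0.27). Of 13 tested cartilage, bone and fat markers 5 rose and 3 fell (median -0.36), with 1 or 2 rises left without each of the 4 libraries in turn. ALPL, the alkaline phosphatase of bone and of pluripotent cells, fell to 2.18 and 1.10 CPM in RA day 21 libraries, against 92.0 and 66.1 in untreated libraries.

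Classes of transcript differed in how often they were called. Of 465 antisense transcripts tested 30.8% rose and 2.8% fell, and of 359 long intergenic noncoding RNAs 26.2% rose and 6.41% fell. Since the strand setting is not given, antisense counts may hold reads of the genes that they cross. Of 935 processed pseudogenes 4.06% rose and 30.2% fell (median log2 fold change -1.45), and their reads may belong to the genes that they copy. Protein-coding genes, 16084 of those tested, rose in 24.8% and fell in 22.4%. Some of the largest rises lay outside every list. SUCNR1, the succinate receptor, had 54.8 and 60.7 CPM in RA day 21 libraries and no count in untreated libraries, at least 2333-fold higher. NFIA and NFIB, nuclear factors that act in the onset of gliogenesis and chosen here after their values were seen, had 133 and 106 CPM and 116 and 96.5 CPM in RA day 21 libraries, against 6.45 and 3.70 CPM and 8.11 and 8.03 CPM in untreated libraries.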
